A study of Mus musculus with 12 samples.

Results

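The 9 genes described here belong to heat-producing cycles that do not need UCP1: *Ckb*, *Ckmt1*, *Ckmt2*, *Gatm*, *Gamt*, *Slc6a8* and *Alpl* of the creatine cycle, and *Atp2a2* and *Ryr2* of the calcium cycle. They were taken as a named list, with every array probe whose accession belongs to them. This gave 12 probes for the 9 genes, out of 55681 probes and 20660 named genes on the array. A probe entered the tests if the scanner software called it well above background on every array of some group, which 8 of the 9 genes met. *Ckmt2* did not meet it and is described by its values. Where a gene had several probes, the brightest tested probe was read and the other is given where it differed.

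Brown and beige adipocytes burn fuel through UCP1, which lets protons leak back across the inner mitochondrial membrane. In the creatine cycle, creatine kinase spends ATP to make phosphocreatine, which a phosphatase splits again, so that ATP is used up without work. In the calcium cycle, SERCA pumps spend ATP to load calcium into the endoplasmic reticulum, from which release channels let it out again. Both cycles have been described in thermogenic fat, and creatine kinases, SERCA pumps and ryanodine receptors are also among the abundant proteins of muscle.

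RNA was from subcutaneous white adipose tissue (scWAT) and brown adipose tissue (BAT) of male C57Bl6/J mice aged 12 weeks, either WT or lacking LR11, a sorting receptor encoded by *Sorl1* (*Lr11*-/-, compared with WT littermates), with 3 arrays for each of the 4 groups. All mice were fed HFD with 60% of calories from fat, for which the labels give both 4 weeks and a start at weaning. Nothing in the labels says whether each array held 1 animal, and *p* values then measure the spread between arrays, which may be partly technical. The 3 replicates are named 1 to 3, and replicate 1 of each group belonged to the first of 2 array series. Values are the log2 intensity of a probe minus the 75th percentile of its array, so that 0 is a probe as bright as that percentile, and a difference of 1 is a doubling of brightness. Levels of different probes are not compared. As the samples are pieces of tissue, fewer cells of a type and less RNA per cell cannot be told apart.

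On each array 32377 to 37002 of the 59305 spots were called well above background, and 0 were saturated. *Sorl1* lay between 0.11 and 1.21 on the 6 WT arrays and between -3.93 and -2.45 on the 6 *Lr11*-/- arrays, so that each array matched its genotype label. Several arrays stood apart by cell type markers. All 17 genes of a skeletal muscle list were well above background on 5 arrays, WT scWAT replicate 3, *Lr11*-/- scWAT replicate 1, WT BAT replicates 1 and 3 and *Lr11*-/- BAT replicate 1. The summed level of that list, as multiples of the 75th percentile, was 7340, 5840, 2070, 1760 and 1210 on these arrays and 5.79 to 38.2 on the other 7. WT scWAT replicate 2 had the lowest sum of 5 adipocyte genes (339, against 652 to 1590 elsewhere) and the highest sum of 4 macrophage genes (260, against 44.6 to 99.7). *Lr11*-/- scWAT replicate 1 had the highest sum of 6 epithelial genes (42.7, against 0.475 to 8.44). *Ucp1*, the defining gene of brown fat, lay at -4.63, -4.52 and 2.92 in WT scWAT, at 4.39, 9.75 and 10.05 in *Lr11*-/- scWAT and between 9.45 and 10.07 on the 6 BAT arrays. So 2 of the 3 *Lr11*-/- scWAT arrays were at the level of BAT for it.

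The stretches before the start sites of 4 members are shown as a description, and no level or call rests on them. Of these members *Ckmt1*, *Alpl* and *Ryr2* were high on the same arrays, and *Ckmt2* was high on the muscle arrays. Each is the 250 bases before the start, 5′ to 3′, from RefSeq on GRCm38.p6, and for *Ckmt1* and *Alpl*, which have several listed starts, the most upstream one. Capitals mark CAGCTG, an E-box bound by myogenic factors.
Ckmt1 (chr2:121357526-121357775, plus strand): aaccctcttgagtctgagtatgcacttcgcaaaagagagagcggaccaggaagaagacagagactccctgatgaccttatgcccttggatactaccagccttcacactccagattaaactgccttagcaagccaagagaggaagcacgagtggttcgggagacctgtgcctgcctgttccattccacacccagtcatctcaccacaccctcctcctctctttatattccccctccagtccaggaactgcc
Alpl (chr4:137796385-137796634, minus strand): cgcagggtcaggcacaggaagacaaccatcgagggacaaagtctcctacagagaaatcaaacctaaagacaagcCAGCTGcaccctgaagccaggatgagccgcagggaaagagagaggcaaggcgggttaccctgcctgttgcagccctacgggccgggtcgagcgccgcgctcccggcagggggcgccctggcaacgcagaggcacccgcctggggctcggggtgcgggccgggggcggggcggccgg
Ryr2 (chr13:12106946-12107195, minus strand): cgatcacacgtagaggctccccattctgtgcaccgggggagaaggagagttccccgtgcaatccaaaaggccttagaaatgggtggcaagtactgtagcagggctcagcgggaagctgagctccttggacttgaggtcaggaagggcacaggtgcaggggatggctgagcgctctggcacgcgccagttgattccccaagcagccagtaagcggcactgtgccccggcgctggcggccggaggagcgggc
Ckmt2 (chr13:91876886-91877135, minus strand): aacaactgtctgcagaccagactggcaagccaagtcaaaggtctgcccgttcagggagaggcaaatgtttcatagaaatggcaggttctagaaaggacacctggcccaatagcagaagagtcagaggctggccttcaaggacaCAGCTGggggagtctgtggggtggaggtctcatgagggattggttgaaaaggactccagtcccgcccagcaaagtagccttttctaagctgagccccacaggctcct
The E-box was found in 2 of the 9 promoters listed for 7 of the members, 107 bases before the start of *Ckmt2* and 176 bases before that of *Alpl*, and in 13.0% of all 32851 promoters over the same length. Neither TCAAGGTCA, bound by estrogen-related receptors, nor TGACGTCA, bound by CREB, was found on either strand in any of the 9, and these letters occur in 0.387% and 1.55% of all promoters. No match overlapped another. A match is a run of letters and was not tested as a binding site.

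Among the creatine kinases, *Ckmt1*, the mitochondrial enzyme found in many tissues, differed between genotypes in scWAT. It lay at 3.48, 2.69 and 3.15 in WT scWAT and at 3.90, 4.50 and 4.86 in *Lr11*-/- scWAT, and in BAT at 4.99, 4.99 and 4.67 in WT and at 5.13, 4.78 and 4.78 in *Lr11*-/-. All 3 *Lr11*-/- scWAT arrays were above all 3 WT scWAT arrays, replicate 3 was within the range of the 6 BAT arrays (4.67 to 5.13) and replicate 2 just under it. The level rose by 1.31 ± 0.29 on the log2 scale in *Lr11*-/- scWAT (SE, n=3 per group, 95% interval 0.68 to 1.95, limma adjusted p=0.040), which is 2.48-fold. The exact permutation test on the same values gave p=0.1, two-sided, the smallest that 3 arrays against 3 allow. The difference was 0.42 in the first array series and 1.76 in the second. *Ckmt1* was the only member called in this comparison, 1 of 8, where 5.27% of the 32121 tested probes were called. The groups did not overlap for 2 of 8 members, *Ckmt1* and *Alpl*, and for 20.4% of all probes.

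The call for *Ckmt1* sat close to the threshold. It was lost without WT scWAT replicate 2 (1.1, limma adjusted p=0.10), without *Lr11*-/- scWAT replicate 2 (1.27, adjusted p=0.16) or replicate 3 (1.09, adjusted p=0.17), and without any 1 of the 6 BAT arrays (adjusted p from 0.063 to 0.069, with the difference itself at 1.31). With the array slide as a block the difference of 1.31 did not pass (limma adjusted p=0.056), and with the array series as a block it did (adjusted p=0.046). It was held without the 5 muscle arrays (1.60, limma adjusted p=0.047). A list of 7 thermogenic genes, *Ucp1* among them, moved with *Ckmt1*. Its summed level was 1.92 to 262 in WT scWAT, 398 to 3640 in *Lr11*-/- scWAT and 2630 to 3550 in BAT. The 262 and the 398 were on the scWAT muscle arrays, WT replicate 3 and *Lr11*-/- replicate 1. On these arrays the highest of the 7 were *Cox8b* (7.33 and 7.37) and *Cox7a1* (6.16 and 7.02), while *Ucp1* lay at 2.92 and 4.39. The part of muscle RNA in these sums was not tested. In scWAT 4 of the 7 passed the test, all higher in *Lr11*-/-, against 5.27% of all probes called in either direction. Of the 7, *Ucp1*, *Cidea* and *Elovl3* were well above background on 2 of 3 WT scWAT arrays. They entered the tests only through the groups where they are high, so any call of theirs adds no support. The *Ucp1* call was lost under 11 of 26 alternatives. The adipocyte sum was 339 to 1160 in WT scWAT and 1010 to 1590 in *Lr11*-/- scWAT. Of its 5 genes 0 were called (limma) and 4 were at an unadjusted p below 0.05, against 27.6% of all probes at such a p. The part of either list in the difference was not tested.

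*Ckb*, the cytosolic creatine kinase of brain and other tissues, did not pass the test in scWAT, and its probes disagreed. On the brighter probe it lay at 1.44, 3.30 and 0.63 in WT scWAT and at 0.74, 1.12 and 0.18 in *Lr11*-/- scWAT, a difference of -1.11 ± 0.55 (SE, limma adjusted p=0.22, 95% interval -2.31 to 0.10). On the other probe WT scWAT lay at 0.83, 2.21 and 1.41 and *Lr11*-/- scWAT at 2.47, 0.60 and -0.56. In the first array series the difference was thus -0.70 on the brighter probe and 1.63 on the other, while in the second both were below 0 (-1.31 and -1.79). The highest WT value on both probes was that of replicate 2, the array with low adipocyte and high macrophage sums. Without WT scWAT replicate 3 the brighter probe passed (-1.69, limma adjusted p=0.046), as it did under 1 of 27 alternatives in all. With single arrays left out its difference ran from -1.69 to -0.35.

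In BAT the brighter *Ckb* probe lay at 1.32, 1.34 and 1.26 in WT and at 1.84, 1.44 and 1.99 in *Lr11*-/-. The groups did not overlap, but the difference of 0.45 was within the error of the fit (SE 0.55, limma adjusted p=1). On the other probe the BAT groups overlapped (0.42 ± 0.63, SE). The order from low to high was *Lr11*-/- scWAT, WT BAT, *Lr11*-/- BAT and WT scWAT, the last of which overlapped its neighbour.

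*Ckmt2*, the mitochondrial creatine kinase of striated muscle, was well above background on exactly the 5 muscle arrays. It lay at -5.86, -6.36 and 5.98 in WT scWAT, at 6.03, -6.47 and -6.27 in *Lr11*-/- scWAT, at 4.76, -6.53 and 4.62 in WT BAT and at 3.69, -6.60 and -6.54 in *Lr11*-/- BAT. The 5 high values thus came from all 4 groups, and on the other 7 arrays, 3 of them BAT, the probe was not well above background. *Ckm*, the cytosolic creatine kinase of muscle, had the same 5 arrays between 4.53 and 8.14 and the other 7 between -7.11 and -4.69. Tested without the filter, *Ckmt2* differed by -0.16 between genotypes in scWAT and by -4.10 in BAT (limma, adjusted *p* values 0.99 and 1, exact permutation p=0.8 and p=0.2), and each group mean moved with how many muscle arrays the group held.

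**Figure D1:**
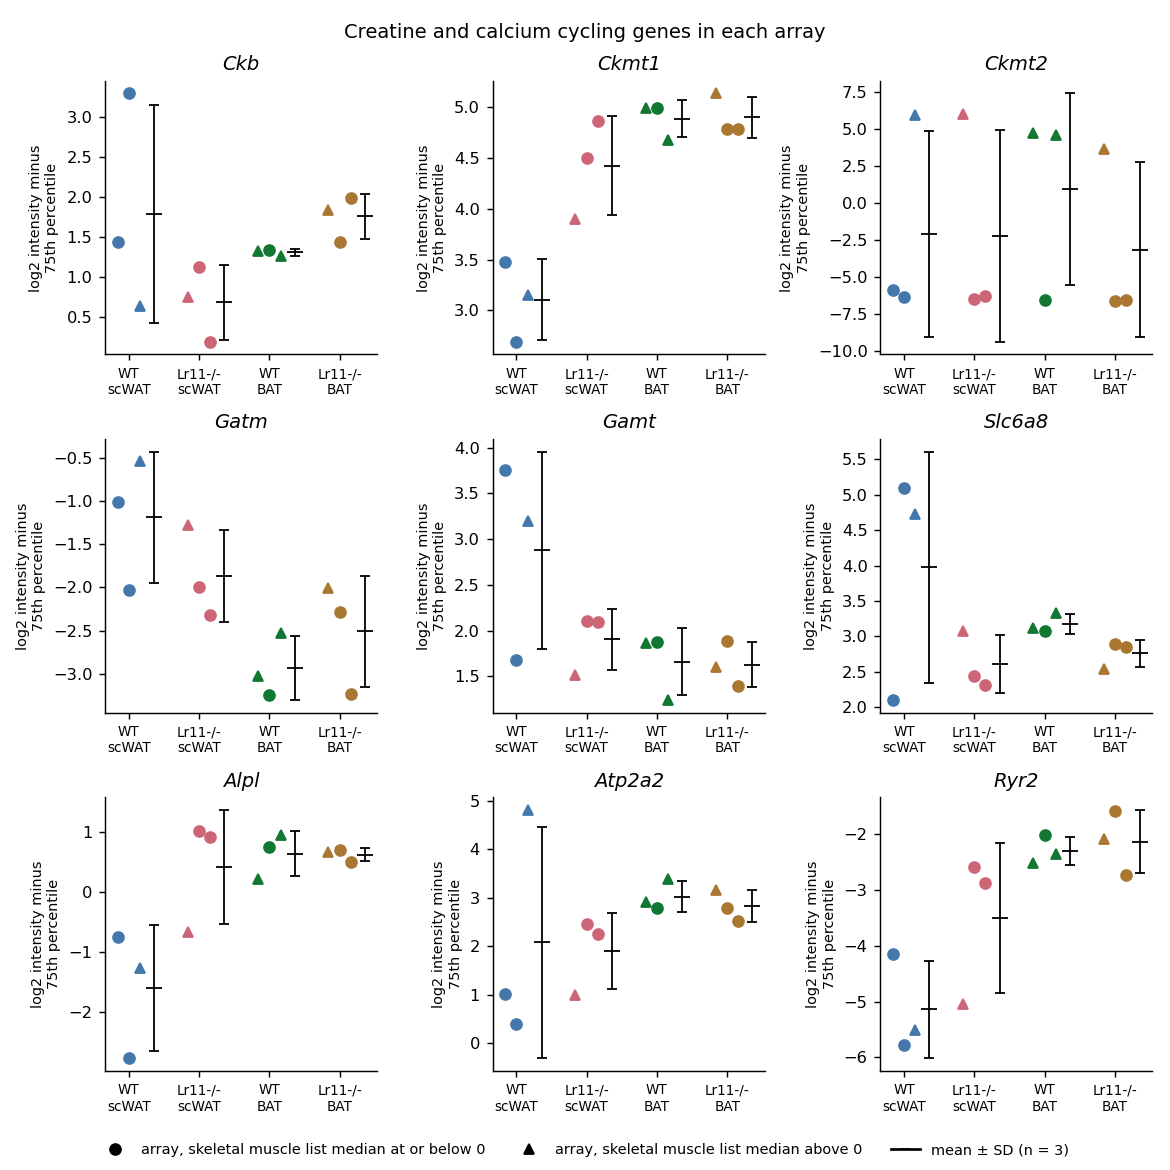
Level of each of the 9 genes (log2 intensity minus the 75th percentile of the array) on the 3 arrays of each group, with the mean and SD beside them; triangles are the 5 arrays with a skeletal muscle list median above 0. For *Ckmt1* and *Alpl* the WT and *Lr11*-/- points of scWAT do not overlap, and *Ckmt2* is high only on the 5 triangles.

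The enzymes that make creatine and the transporter that takes it up lay lower in *Lr11*-/- scWAT on average. Of these 3 genes 0 were called (limma), against 5.27% of all probes. At an unadjusted p below 0.05 there were also 0 of 3, against 27.6% of all probes. *Gatm*, which makes the precursor guanidinoacetate from arginine and glycine, lay at -1.01, -2.03 and -0.54 in WT scWAT and at -1.28, -2.00 and -2.32 in *Lr11*-/- scWAT. The groups overlapped, and the difference was -0.67 ± 0.45 (SE, limma adjusted p=0.35, 95% interval -1.66 to 0.32). In BAT it lay at -3.03, -3.25 and -2.53 in WT and at -2.01, -2.29 and -3.23 in *Lr11*-/-, also with overlap (0.43 ± 0.45, limma adjusted p=1).

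*Gamt*, which methylates guanidinoacetate to creatine, lay at 3.76, 1.68 and 3.20 in WT scWAT and at 1.52, 2.11 and 2.09 in *Lr11*-/- scWAT. WT replicate 2 was the low WT array and fell among the *Lr11*-/- values. The difference was -0.97 ± 0.46 (SE, limma adjusted p=0.19, 95% interval -1.98 to 0.03), -2.24 in the first array series and -0.34 in the second, and -0.94 on the other *Gamt* probe. In BAT all 6 values were between 1.24 and 1.89.

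*Slc6a8*, the creatine transporter, lay at 2.10, 5.10 and 4.72 in WT scWAT and at 3.08, 2.44 and 2.32 in *Lr11*-/- scWAT. The array series gave opposite directions, 0.98 in the first and -2.53 in the second, and the difference over all arrays was -1.36 ± 0.62 (SE, limma adjusted p=0.19, 95% interval -2.74 to 0.02). It passed without WT scWAT replicate 1 (-2.30, limma adjusted p=0.0072), and with single arrays left out it ran from -2.30 to -0.80. In BAT it lay at 3.12, 3.07 and 3.33 in WT and at 2.54, 2.89 and 2.85 in *Lr11*-/-. Those groups did not overlap, but the difference of -0.41 ± 0.62 (SE) did not pass (limma adjusted p=1).

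*Alpl* encodes tissue-nonspecific alkaline phosphatase, which splits phosphocreatine in the mitochondria of thermogenic fat and is also made in bone and liver. It lay at -0.74, -2.77 and -1.27 in WT scWAT and at -0.67, 1.02 and 0.93 in *Lr11*-/- scWAT, and in BAT at 0.22, 0.76 and 0.95 in WT and at 0.68, 0.71 and 0.50 in *Lr11*-/-. The genotypes did not overlap in scWAT, though replicate 1 of both, the pair of the first array series, differed by only 0.07, while the second series differed by 2.99. *Lr11*-/- replicate 3 was within the range of the 6 BAT arrays and replicate 2 just above it. The difference of 2.02 ± 0.54 (SE, 95% interval 0.81 to 3.22, 4.05-fold) did not pass the test (limma adjusted p=0.056). It passed without WT scWAT replicate 1 (2.44, adjusted p=0.028), without WT scWAT replicate 3 (2.18, adjusted p=0.047) or without *Lr11*-/- scWAT replicate 1 (2.56, adjusted p=0.0081, all limma). Over all single arrays left out the difference ran from 1.43 to 2.56. Without the 5 muscle arrays it was 2.72 (limma adjusted p=0.063).

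**Figure D2:**
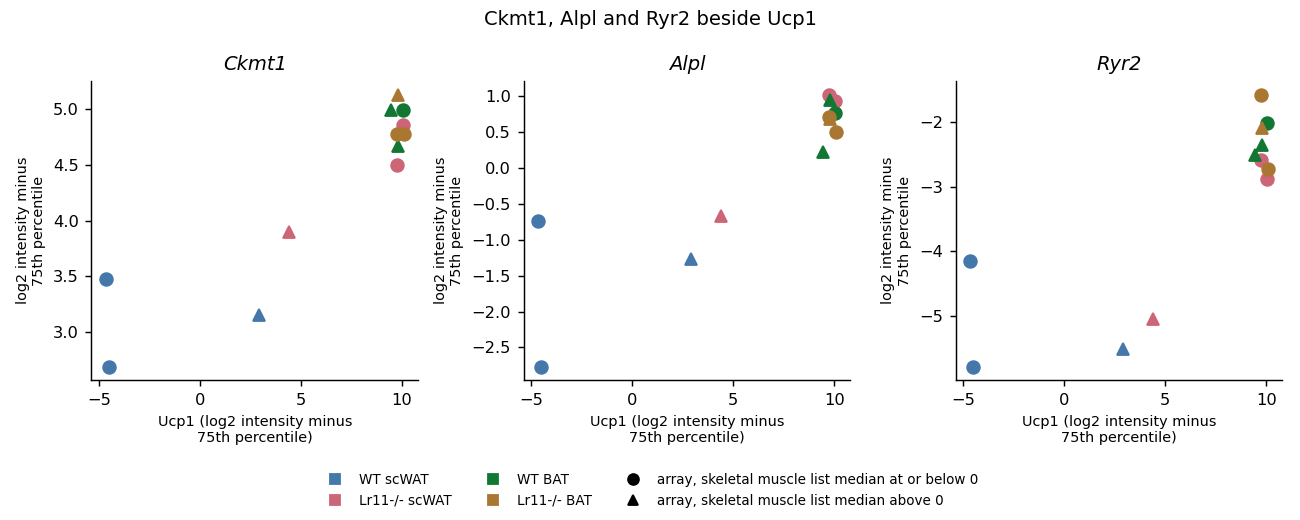
Levels of *Ckmt1*, *Alpl* and *Ryr2* against that of *Ucp1* on the 12 arrays (both axes log2 intensity minus the 75th percentile), coloured by group, with triangles for the 5 muscle arrays. *Lr11*-/- scWAT replicates 2 and 3 lie with the 6 BAT arrays at *Ucp1* levels of 9.45 to 10.07, and *Lr11*-/- scWAT replicate 1 and WT scWAT replicate 3 lie between them and the other WT scWAT arrays for *Ucp1*.

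In the calcium cycle, the release channel gene *Ryr2*, the ryanodine receptor of heart, was dim in scWAT. It lay at -4.14, -5.78 and -5.50 in WT scWAT, at -5.05, -2.59 and -2.88 in *Lr11*-/- scWAT, at -2.51, -2.02 and -2.35 in WT BAT and at -2.09, -1.58 and -2.72 in *Lr11*-/- BAT. It was well above background on 1 of 3 WT scWAT arrays, 2 of 3 *Lr11*-/- scWAT arrays and all 6 BAT arrays, so it entered the tests through BAT alone, and its lower scWAT values are close to background. The scWAT groups overlapped, since replicate 1 of *Lr11*-/- was below replicate 1 of WT (-0.91) while the second series differed by 2.90. The difference over all arrays, 1.63 ± 0.63 (SE), did not pass (limma adjusted p=0.13), and its size rests partly on values close to background.

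*Atp2a2* encodes the pump SERCA2, made in many cell types and, as one of its splice forms, in heart and slow-twitch muscle. On the brighter of its probes it lay at 1.01, 0.40 and 4.81 in WT scWAT, at 0.99, 2.45 and 2.25 in *Lr11*-/- scWAT, at 2.90, 2.78 and 3.38 in WT BAT and at 3.16, 2.79 and 2.51 in *Lr11*-/- BAT. The highest of the 12 values was that of WT scWAT replicate 3, a muscle array, and the 3 lowest were those of WT scWAT replicates 1 and 2 and *Lr11*-/- scWAT replicate 1. The other probe had the same highest array, at 1.35 against -1.91 to 0.33 elsewhere. The genotype difference in scWAT was -0.18 ± 0.92 (SE, limma adjusted p=0.92, 95% interval -2.21 to 1.86). It turned to 1.19 without WT scWAT replicate 3 (limma adjusted p=0.095), and to 1.65 ± 0.30 without the 5 muscle arrays (SE, limma adjusted p=0.035), where 2 arrays remained in each scWAT group.

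The slow-twitch genes of the muscle list, picked out after their values were seen, lay unevenly over the muscle arrays. *Myh7*, the slow myosin heavy chain, was at 8.08 on WT scWAT replicate 3 but at -2.82 on *Lr11*-/- scWAT replicate 1, and *Tnnt1*, slow troponin T, at 8.58 and 0.49. Of the fast-twitch genes, *Myh4* was at 9.18 and 9.27 and *Tnnt3* at 9.14 and 9.16 on these arrays, while *Myh1* was at 8.99 and 7.11 and *Myh2* at 8.42 and 4.93. On the 3 BAT muscle arrays *Myh7* was at 3.93, 5.26 and 4.61, and *Atp2a2* at 2.90, 3.38 and 3.16, against 2.51 to 2.79 on the other 3 BAT arrays. *Atp2a1*, the SERCA1 pump of fast-twitch muscle, was at 6.76 and 7.21 on the scWAT muscle arrays, between 3.65 and 5.14 on the BAT muscle arrays and between -2.67 and -1.40 on the other 7. *Sln* (sarcolipin), which uncouples SERCA pumps, was at 6.86 and -0.88 on the scWAT muscle arrays. The part of muscle RNA in the levels of *Atp2a2* was not tested.

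**Figure D3:**
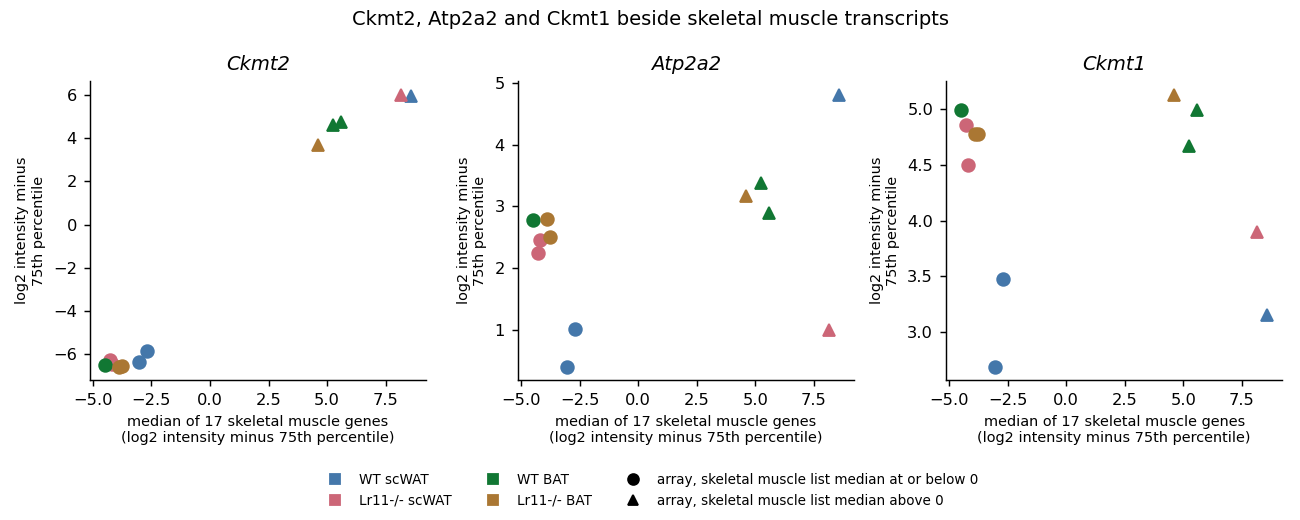
Levels of *Ckmt2*, *Atp2a2* and *Ckmt1* against the median of 17 skeletal muscle genes on the 12 arrays (both axes log2 intensity minus the 75th percentile), coloured by group. *Ckmt2* separates the 5 muscle arrays (3.69 to 6.03) from the other 7 (-6.60 to -5.86), *Atp2a2* is highest on WT scWAT replicate 3 (4.81), and *Ckmt1* on the muscle arrays of scWAT (3.15 and 3.90) is below its level on those of BAT (4.67 to 5.13).

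In BAT, 0 of the 8 tested members differed between genotypes (limma), against 0.0187% of all probes, and 0 of 8 at an unadjusted p below 0.05, against 2.12% of all probes. Groups did not overlap for 2 of 8 members, *Ckb* and *Slc6a8*, and for 12% of all probes. The other probes of 2 members differed in this, as *Ckb* overlapped and *Atp2a2* did not. For *Atp2a2* that probe gave 0.12 ± 0.64 (SE), against -0.20 on the brighter one. The intervals show what the arrays could not exclude: for *Ckmt1* -0.62 to 0.65, for *Alpl* -1.21 to 1.19, for *Ryr2* -1.23 to 1.55 and for *Atp2a2* -2.23 to 1.83 on the log2 scale. Whether the genotype effect differed between scWAT and BAT was tested as an interaction, and 0 of 8 members passed (limma), against 0% of all probes. At an unadjusted p below 0.05 there were 2 of 8 members, against 11% of all probes. These were *Ckmt1*, whose effect was larger in scWAT by 1.30 ± 0.41 (SE, limma adjusted p=0.40), and *Alpl*, by 2.03 ± 0.77 (SE, adjusted p=0.41).

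Between the depots of WT mice, *Ckmt1* and *Alpl* were higher in BAT than in scWAT and *Gatm* was lower. The depot comparison called 4 of 8 members, against 24.8% of all probes, and the groups did not overlap for the same 4 members, against 40.2% of all probes. *Ryr2* is among the 4 but entered the tests only through BAT, where it is high, so its call adds no support. *Ckmt1* was higher in BAT by 1.77 ± 0.29 (SE, 3.42-fold, limma adjusted p=0.0043), *Alpl* by 2.23 ± 0.54 (SE, 4.70-fold, adjusted p=0.016), and *Ryr2* by 2.85 ± 0.63 (SE, adjusted p=0.011), a size that depends on the WT scWAT values of which 1 of 3 was well above background. *Gatm* differed by -1.74 ± 0.45 (SE, limma adjusted p=0.020). These 4 kept their direction in both array series. In the first series this sets replicate 1 of WT BAT against replicate 1 of WT scWAT, which lay on different slides. Depot and slide cannot be told apart there. *Gamt* (-1.22 ± 0.46, limma adjusted p=0.072), *Slc6a8* (-0.80 ± 0.62, adjusted p=0.36), *Ckb* (-0.48 ± 0.55, adjusted p=0.54) and *Atp2a2* (0.95 ± 0.92, adjusted p=0.47, all SE) did not pass.

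With the slide as a block the depot calls of *Alpl* (2.27, limma adjusted p=0.058), *Gatm* (-1.65, adjusted p=0.063) and *Ryr2* (2.76, adjusted p=0.0514) were lost, and that of *Ckmt1* was not (1.65, adjusted p=0.025). Calls also depended on single arrays. Without WT BAT replicate 2, the WT BAT array not among the 5 muscle arrays, *Alpl* (2.18, limma adjusted p=0.058) and *Gatm* (-1.59, adjusted p=0.076) were lost. Without WT BAT replicate 1 *Gatm* was lost (-1.70, limma adjusted p=0.063), and without WT BAT replicate 3 *Alpl* stood at 2.08 (adjusted p=0.0502). *Gamt* passed without WT scWAT replicate 2 (-1.82, limma adjusted p=0.0094), *Slc6a8* without WT scWAT replicate 1 (-1.74, adjusted p=0.0038) and *Atp2a2* without WT scWAT replicate 3 (2.31, adjusted p=0.0059). Over all single arrays left out they ran from -1.82 to -0.78, from -1.74 to -0.24 and from 0.11 to 2.31. With all 5 muscle arrays left out, *Atp2a2* was the only member that passed (2.07 ± 0.36, SE, limma adjusted p=0.041), and *Ckmt1* stood at 1.91 (adjusted p=0.058). That fit has 1 array of WT BAT, which is assumed to vary like the other groups. The macrophage sum was also higher in WT scWAT (95.6 to 260) than in WT BAT (44.6 to 63.0). Of its 4 genes 3 were called, against 24.8% of all probes, and the part of this list in the depot differences was not tested. The comparisons share the WT scWAT arrays, so the scWAT genotype and the depot values of a gene are not independent.

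**Figure D4:**
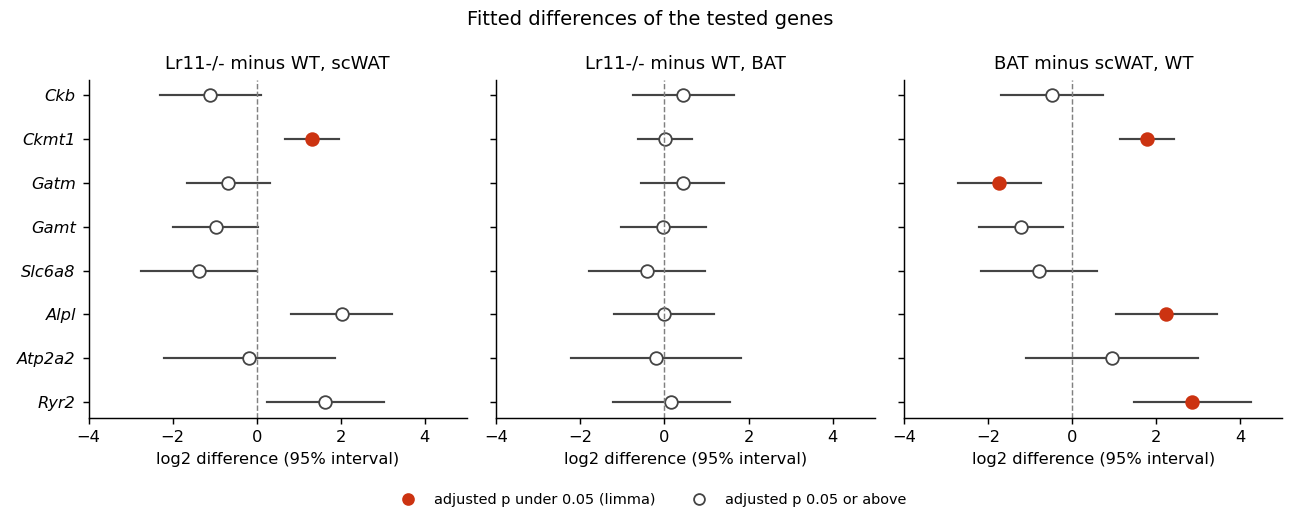
Fitted log2 differences of the 8 tested genes with 95% intervals for the genotypes in scWAT and in BAT (*Lr11*-/- minus WT) and for the depots of WT (BAT minus scWAT) (n=3 arrays per group); filled points have a limma adjusted p below 0.05. *Ckmt1* is the 1 filled point in scWAT, 0 are filled in BAT, and *Ckmt1*, *Gatm*, *Alpl* and *Ryr2* are filled between depots.

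Set in order of the group means, 3 genes ran from WT scWAT through *Lr11*-/- scWAT to BAT. For *Ckmt1* the *Lr11*-/- scWAT group was apart from WT scWAT and overlapped WT BAT, and for *Alpl* it likewise overlapped the BAT group next to it. For *Ryr2* it overlapped WT scWAT and not WT BAT. *Gatm* and *Gamt* had the opposite end groups, highest in WT scWAT and lowest in BAT, and each of their neighbouring groups overlapped, as did those of *Atp2a2* and *Ckmt2*. *Slc6a8* was lowest in *Lr11*-/- scWAT and highest in WT scWAT, and its WT and *Lr11*-/- BAT groups did not overlap. Over the 12 arrays, which share depot, genotype and array series, the Pearson correlation was 0.93 between *Ckmt1* and *Alpl*, 0.93 between *Ckmt1* and *Ryr2* and 0.91 between *Alpl* and *Ryr2*. The median difference of the 8 members was -0.42 for the genotypes in scWAT (all probes 0.04), 0.00 in BAT (0.04) and 0.23 between the depots of WT (0.07).

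The genes whose levels ran most like those of each member were sought among 14695 named genes, by Pearson correlation over the same 12 arrays and as a description only. For *Ckmt1* they were *Clpp*, a mitochondrial protease (0.994), *Ndufaf3*, an assembly factor of complex I (0.992), and *Ptdss2*, which makes phosphatidylserine (0.991). For *Alpl* they were *Lipt1*, of mitochondrial lipoylation (0.996), *Decr1*, of fatty acid oxidation (0.993), and *Pex11a*, of peroxisome division (0.992). *Ryr2* was followed by *Pfn4* (0.981) and *4930415O20Rik* (0.976). *Atp2a2* ran most like *Myl6b*, a myosin light chain of slow-twitch muscle (0.932), then *Kcnd3* (0.925) and *Herc3* (0.923). The nearest genes were *Myd88*, *Cybc1* and *Wdr91* for *Ckb* (0.912 to 0.939), *Npy1r*, *Prss12* and *Calml4* for *Gatm* (0.916 to 0.942), *Psmd13*, *Pdxp* and *Ankrd29* for *Gamt* (0.934 to 0.941) and *Tead3*, *Zswim9* and *Prg4* for *Slc6a8* (0.933 to 0.965).

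Other genes of the same pathways were followed in 5 lists. Of 10 tested genes that supply arginine, glycine or methyl groups, 1 was higher and 1 lower in *Lr11*-/- scWAT, where 5.27% of all probes were called. *Shmt1*, the cytosolic enzyme that interconverts serine and glycine, lay at -3.28, -4.45 and -3.61 in WT scWAT and at -1.29, -0.32 and -0.21 in *Lr11*-/- scWAT, and between -0.21 and 0.31 on the 6 BAT arrays. It rose by 3.17 ± 0.35 on the log2 scale (SE, limma adjusted p=0.0092; without *Lr11*-/- scWAT replicate 3, 2.97, adjusted p=0.0531), and was higher in BAT than in scWAT of WT by 3.69 ± 0.35 (SE, adjusted p=0.0011). The probe was well above background on 2 of 3 WT scWAT arrays, so it entered the tests only through the groups where it is high. Its calls between genotypes in scWAT and between depots thus add no support, and the size of both differences is uncertain. *Ass1*, which makes argininosuccinate on the way to arginine, lay at 2.63, 2.58 and 0.74 in WT scWAT and at -0.02, 0.24 and 0.19 in *Lr11*-/- scWAT and fell by 1.85 on the log2 scale (SE 0.46, limma adjusted p=0.047), a call that was lost without WT scWAT replicate 1 (-1.53, adjusted p=0.0613) or replicate 2 (-1.55, adjusted p=0.133). In BAT 0 of the 10 passed (limma), against 0.0187% of all probes. At an unadjusted p below 0.05 there were also 0, against 2.12% of all probes. *Arg1*, which breaks arginine down and marks some macrophages, reached 4.24 on WT scWAT replicate 2 and was at or below -2.52 on the other 11 arrays.

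Of 9 genes for adenine nucleotide exchange and adenylate kinases, 0 passed between genotypes in scWAT (limma), with 4 at an unadjusted p below 0.05, all higher in *Lr11*-/-, where 27.6% of all probes were at such a p. Between depots of WT, 2 of the 9 were higher in BAT, against 24.8% of all probes called in either direction. These were *Vdac2*, an outer membrane channel (1.06 ± 0.25, SE, limma adjusted p=0.015), and *Ak3*, of the mitochondrial matrix (2.21 ± 0.57, SE, adjusted p=0.020). *Slc25a4*, the nucleotide carrier of heart and muscle, was highest on the scWAT muscle arrays (9.04 and 8.56, against 5.51 to 7.87 elsewhere).

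Of 2 tested pump paralogs and regulators, *Atp2a1* and *Atp2a3*, 0 passed in any comparison (limma), also at an unadjusted p below 0.05. Of all probes, 5.27% were called in scWAT, 0.0187% in BAT, 0% for the interaction and 24.8% between depots. At an unadjusted p below 0.05 these shares were 27.6%, 2.12%, 11% and 40.1%, so a count of 0 of 2 says little. Of 17 tested genes of calcium release, storage and store entry, *Fkbp1b*, which binds and stabilises ryanodine receptors, was the 1 called between genotypes in scWAT, against 5.27% of all probes. It lay at 0.04, 1.72 and -0.48 in WT scWAT and at -1.62, -1.50 and -1.88 in *Lr11*-/- scWAT, and fell by 2.10 on the log2 scale (SE 0.53, limma adjusted p=0.0496), a call that was lost without WT scWAT replicate 2 (-1.45, adjusted p=0.114) and under most other alternatives. Between depots of WT 3 of the 17 were called, against 24.8% of all probes. *Fkbp1b* was lower in BAT (-2.54 ± 0.53, SE, adjusted p=0.0094), while the inositol trisphosphate receptors *Itpr1* (1.83 ± 0.50, SE, adjusted p=0.026) and *Itpr2* (3.01 ± 0.58, SE, adjusted p=0.0068) were higher there. For *Itpr2* the *Lr11*-/- scWAT arrays lay at 2.30, 4.97 and 4.80, WT scWAT at 2.97, 2.85 and 2.27 and BAT between 5.58 and 6.12. In scWAT its genotype difference did not pass (1.33 ± 0.58, SE, limma adjusted p=0.17). *Ryr1*, *Casq1*, *Trdn* and *Hrc*, of the release site of skeletal muscle, were high on the same 5 arrays as *Ckmt2*. *Ryr1*, for instance, was between 2.12 and 6.02 there and between -5.93 and -1.75 on the other 7.

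Of 9 genes for mitochondrial calcium uptake and export, 0 passed between genotypes in scWAT (limma), with 4 higher and 2 lower at an unadjusted p below 0.05, against 27.6% of all probes. Between depots 5 of the 9 were called, against 24.8% of all probes. Higher in BAT of WT were *Letm1* (2.50 ± 0.65, SE, limma adjusted p=0.020), *Mcur1* (2.52 ± 0.65, SE, adjusted p=0.020) and *Smdt1*, a subunit of the uniporter (0.96 ± 0.30, SE, adjusted p=0.041). Lower there were *Mcub*, its inhibitory subunit (-2.04 ± 0.51, SE, limma adjusted p=0.017), and the exchanger *Slc8b1* (-1.69 ± 0.41, SE, adjusted p=0.015). With the slide as a block all 5 of these calls were lost (limma adjusted p from 0.0618 for *Slc8b1* to 0.11 for *Smdt1*), as were those of *Ak3* (2.09, adjusted p=0.0798) and *Itpr1* (1.73, adjusted p=0.0858). The *Smdt1* call was lost under 15 of 27 alternatives in all, among them leaving out any 1 BAT array. *Letm1* lay at 3.66, 1.97 and 2.85 in WT scWAT, at 3.20, 6 and 5.69 in *Lr11*-/- scWAT and between 5.14 and 5.94 in BAT, so that *Lr11*-/- replicates 2 and 3 were again at BAT levels and replicate 1 was not. In BAT, 0 genes of the 5 lists passed between genotypes (limma), against 0.0187% of all probes. At an unadjusted p below 0.05 there were also 0, against 2.12% of all probes.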

How the data were processed

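RNA was labelled with Cy3 and hybridised to one-colour Agilent mouse arrays, 12 in all. Deposited by the authors were spot intensity values from Agilent Feature Extraction 10.10 (per the labels), background-subtracted and detrended within the array, and not normalized between arrays. Groups came from the source and genotype labels, and replicate numbers are names only. Outlier spots were left out, log2 intensities of a probe's spots averaged, and each array's 75th percentile subtracted. Precision is limited by the number of arrays and by signal over background. Probes called well above background on every array of some group (32121) were tested in 1 limma fit of 4 group means over all 12 arrays (R 4.3.3, limma 3.58.1, the data.table package (1.17.8)), with Benjamini-Hochberg adjusted p below 0.05 over all tested probes. Python 3.11.15 and matplotlib 3.10.9 drew the figures. Scripts were tested on simulated data.

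Probes were named from RefSeq accessions (27235 of 28685 matched, gene table of GRCm38.p6). The array was designed on another assembly, so probe positions are not given. Genes were read from the brightest tested probe. By rule, the text names the members, *Sorl1*, *Ucp1*, up to 3 rises and 3 falls called per pathway list and comparison, marker genes that move with a member, and the 3 genes most like each member, of which 1 is not reported here. Other genes named (*Arg1*, *Slc25a4*, *Atp2a1*, *Atp2a3*, *Sln*, *Ryr1*, *Casq1*, *Trdn*, *Hrc*) were chosen after their values were seen. Members and lists were chosen with earlier results of these data known. The 27 alternatives were other scalings, background corrections and filters, outlier spots kept, array series or slide as a block, the second series alone, fewer arrays, array weights, trend and robust estimation, all probes of a gene, and each array left out. Leaving out the 5 muscle arrays was chosen after seeing the data.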

Additional observations from a re-analysis of the deposited data

How the results depend on the processing

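*Ckmt1* in scWAT kept its direction under all 27 alternatives (1.07 to 1.76, limma adjusted p from 0.0048 to 0.31), and 13 of them lost its call. The number of members called between genotypes in scWAT, 1 of 8, became 0 with no scaling, no filter, the slide as a block or the 6 scWAT arrays alone, 2 with a filter on all 12 arrays (*Ckmt1*, *Alpl*) or without the 5 muscle arrays (*Ckmt1*, *Atp2a2*), 3 with array weights and 4 in the second series alone, and ran from 0 to 3 with single arrays left out. Between depots the 4 calls became 1 with the slide as a block (*Ckmt1*) or without the 5 muscle arrays (*Atp2a2*), and ran from 2 to 5 with single arrays left out. For the interaction the 0 calls became 1 in the second series alone (*Slc6a8*), 2 with array weights (*Ckmt1*, *Alpl*), and ran from 0 to 1 with single arrays left out (*Ckmt1*, without *Lr11*-/- scWAT replicate 1). BAT had 0 members called throughout. In the main fit 5.27% of all probes were called in scWAT, 24.8% between depots, 0% for the interaction and 0.0187% in BAT. The shares under the alternatives are not given here, so these counts cannot be set against all probes. The scWAT counts with array weights, in the second series and without *Lr11*-/- scWAT replicate 1 include *Ryr2*, which entered the tests through BAT alone. The cause of the changes was not tested.

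Of 1333 alternative values of single genes, members and called pathway genes with *Sorl1* and *Ucp1*, 1130 kept direction and side of the threshold, 22 gained and 146 lost a call and 35 turned direction. In scWAT the calls of *Ass1* and *Fkbp1b* were lost under 16 and 20 of 27 alternatives and that of *Shmt1* under 2 of 26. Between depots *Smdt1* was lost under 15 of 27, *Itpr1* and *Slc8b1* under 6, *Ak3*, *Letm1* and *Mcur1* under 5, *Mcub* under 4 of 26, *Fkbp1b* under 3, *Vdac2* under 2 and *Shmt1* and *Itpr2* under 0. As *Shmt1* entered the tests only through groups where it is high, its kept calls add no support. In scWAT *Atp2a2* became 0.13 with array weights and 1.65 without the muscle arrays, and ran from -1.01 to 1.19 with single arrays left out. Its interaction became -0.17 with no scaling and -0.30 over both probes, and ran from -0.81 to 1.39. In BAT, *Ckmt1* became -0.07 with quantile normalization or array weights, -0.04 with no scaling, -0.03 with normexp, -0.05 in the second series and -0.21 without the muscle arrays (single arrays left out, -0.10 to 0.07). There *Alpl* became 0.04 and *Gamt* 0.02 with median scaling, *Gamt* 0.08 in the second series and *Ryr2* -0.13 without the muscle arrays, and single arrays left out gave -0.22 to 0.14 for *Alpl*, -0.24 to 0.09 for *Gamt* and -0.11 to 0.46 for *Ryr2*. *Ucp1* in BAT became -0.01 in the second series and -0.13 without the muscle arrays, and ran from -0.04 to 0.25. *Ckb* between depots ran from -1.07 to 0.27. Median scaling and no scaling moved the median of all probes to 0.17 and -0.20 in scWAT and to 0.20 and -0.25 between depots, from 0.04 and 0.07. The labels carry no replicate numbers, so samples were not paired by number, and the array series and the slide served as blocks.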
